A study of Homo sapiens with 5 samples.

Results

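A set of 10 genes for transcription factors of the monocytic lineage were examined for nearby binding of FOXO3A in 2 human leukemia cell lines. They were SPI1, CEBPA, CEBPB, RUNX1, IRF8, JUN, ZEB2, LYL1, MYB and GFI1, chosen by name from the 19862 protein-coding genes of the RefSeq gene table. Binding at JUN, ZEB2 and LYL1 in these data was already known when the list was made, so it is described and not tested. The assay was CUT&Tag: a Tn5 transposase, brought to FOXO3A by antibodies, cuts and tags the surrounding DNA for sequencing. There were 3 libraries of THP-1 and 2 of U-937, made with the same FOXO3A antibody, and the labels name no treatment. Both are established lines with monocytic features, and the labels call both acute myeloid leukemia cells. Peak lists carry no expression, so the cell type could not be checked against markers.

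Replicate 1 of each line was deposited with peaks, 1282 for THP-1 against 2272 for U-937. The other 3 libraries had 0. The peak names in the THP-1 list carry a prefix that matches no sample label, so its assignment to THP-1 rests on the deposited record alone. Every value below therefore rests on 1 library a line, with no replicate check and no test between lines. The sources used here give neither read depth nor the background of the peak caller. For each peak the authors gave a fold enrichment (a linear ratio) and -log10 of a q-value. Both are the authors' values and serve only to describe and rank peaks within their own list. A peak's position is its summit, and its rank is by fold enrichment, with rank 1 the highest. A gene boundary is either end of the gene's annotated span, and a boundary peak has its summit within 1000 bp of one. Coordinates are hg38, counted from 1.

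FOXO3A is a forkhead transcription factor that growth factor signalling through AKT keeps out of the nucleus. Monocytes arise from progenitors under a small set of factors that act together on promoters and on enhancers, which can lie far from the genes they control. SPI1 (PU.1), CEBPA and CEBPB, IRF8 and JUN promote myeloid and monocytic gene programmes. RUNX1, LYL1 and MYB act in stem and progenitor cells, ZEB2 is a repressor with roles in myeloid differentiation, and GFI1 is a repressor that favours granulocytes over monocytes.

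In U-937, peaks lay at JUN and LYL1 just upstream of the gene start, at ZEB2 just past the gene end, and at RUNX1 inside the gene. The promoter windows of JUN and LYL1 are shown because the peaks reach into them. Each runs from 250 bases before to 50 after the start on the gene's strand (RefSeq, GRCh38.p14), at chr1:58783998-58784297 for JUN and chr19:13102809-13103108 for LYL1, both on the minus strand. Capitals mark GGGCGG, the core bound by Sp and KLF factors, or its reverse complement, and in JUN also TGACATCA and TTACCTCA.
JUN: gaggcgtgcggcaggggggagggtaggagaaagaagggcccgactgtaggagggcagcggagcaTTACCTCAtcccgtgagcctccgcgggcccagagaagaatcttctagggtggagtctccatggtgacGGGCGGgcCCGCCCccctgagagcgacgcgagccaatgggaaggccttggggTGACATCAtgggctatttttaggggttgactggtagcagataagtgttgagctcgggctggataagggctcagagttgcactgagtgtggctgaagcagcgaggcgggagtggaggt
LYL1: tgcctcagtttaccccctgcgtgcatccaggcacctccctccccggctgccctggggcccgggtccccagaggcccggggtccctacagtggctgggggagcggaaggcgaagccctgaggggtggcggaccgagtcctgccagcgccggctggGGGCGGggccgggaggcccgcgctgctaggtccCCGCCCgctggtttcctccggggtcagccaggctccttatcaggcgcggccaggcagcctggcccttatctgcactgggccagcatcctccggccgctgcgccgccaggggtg

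JUN, which encodes a subunit of the AP-1 factor, carried the strongest peak of the 10 genes. The gene spans 58780791 to 58784047 on chromosome 1, and the U-937 peak ran from 58784034 to 58784372. Its fold enrichment was 12.1 and its -log10 q 17.8, rank 37 of 2272 by fold and 33 by q. The summit, at 58784147, lay 100 bp upstream of the start, and 14 of the peak's 339 bases fell within the gene. Of all protein-coding genes, 1.42% had a U-937 summit this close to a boundary. It was the only U-937 peak within 1 Mb of JUN.

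The peak covered bases 1 to 264 of the printed JUN window, with the summit at base 151. The pair of GGGCGG matches, at bases 132 to 137 and 140 to 145, lay beside the summit. TGACATCA, at bases 184 to 191, and TTACCTCA, at bases 65 to 72, are known as sites through which AP-1 proteins act on the JUN promoter. They were looked for after the sequence had been seen. Both lay within the peak, which covered most of the window. TGACATCA occurred on either strand in 2.61% of 35116 promoter windows of this length, and TTACCTCA in 0.715%. Among the 962 windows with a U-937 summit inside, the shares were 1.25% and 0.728%. TGACATCA was thus less common there and TTACCTCA about as common, and neither difference was tested. The window held no GTAAACA, the only forkhead sequence searched for, on either strand. Variants of it were not searched, so a forkhead site is not excluded.

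LYL1, a basic helix-loop-helix factor gene, carried a weaker peak. The gene spans 13099033 to 13102858 on chromosome 19, and the U-937 peak ran from 13103015 to 13103233. Its fold enrichment was 6.01 and its -log10 q 4.57, rank 1198 of 2272, close to the list's median fold of 6.16. The summit lay 306 bp upstream of the start, 56 bases before the printed window, and the peak reached bases 1 to 94 of it. Both GGGCGG matches of the LYL1 window, at bases 155 to 160 and 188 to 193, lay outside the peak. With only peaks of -log10 q of at least 5, LYL1 lost its peak and the nearest lay 161 kb away.

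At gene starts, U-937 summits mostly fell upstream. Of 1027 U-937 peaks within 1000 bp of a listed protein-coding start, 782 (76.1%) were upstream, and the median summit position was -145.0 bp (quartiles -227.0 and -8.0 bp). JUN lay within these quartiles. LYL1 lay further upstream, with 126 of the 1027 peaks (12.3%) further still. By fold, JUN was rank 23 and LYL1 rank 634 of the 1027, whose median fold was 6.59.

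**Figure D1:**
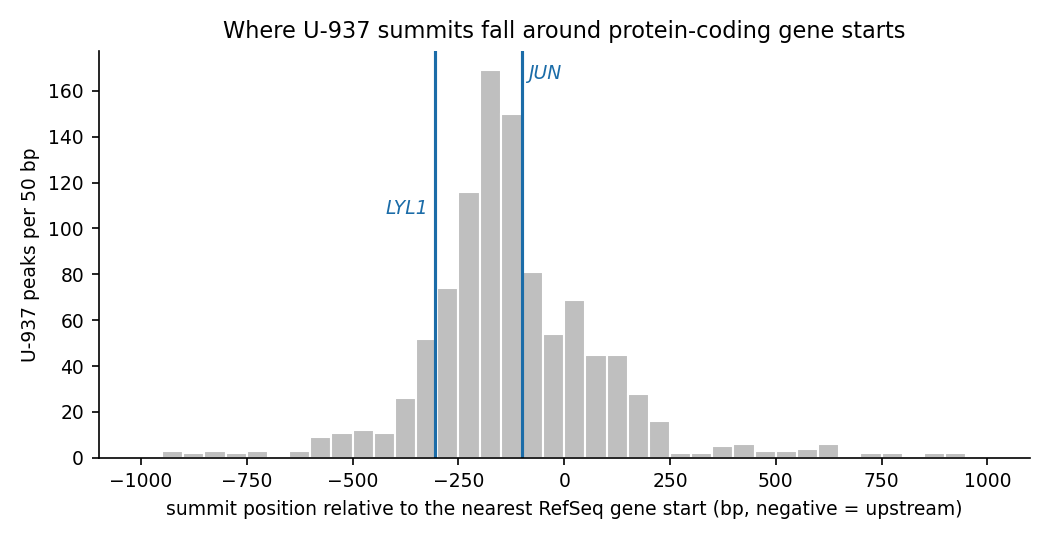
Histogram of U-937 summit positions (x axis, bp from the nearest RefSeq protein-coding start, negative is upstream; y axis, peaks per 50 bp), with vertical lines at JUN and LYL1. JUN, at -100 bp, lies near the main mode of the 1027 peaks, and LYL1 lies on its upstream flank.

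ZEB2, a zinc finger and homeodomain repressor gene, had its peak at the opposite end. The gene spans 144384081 to 144520119 on chromosome 2 on the minus strand, and the U-937 peak ran from 144383057 to 144383261. Its fold enrichment was 6.59 and its -log10 q 5.24, rank 951 of 2272. The summit lay 927 bp past the gene end and 136965 bp from the start. Within 500 bp of a boundary ZEB2 had no peak.

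This position was rare. Of 15842 protein-coding genes with a start in the promoter table, 1261 (7.96%) had a U-937 peak within 1000 bp of a start (a listed one or the 5′ end of the span) and 52 (0.328%) had one at the end but not at a start. In 29 of the 52 the summit lay within 1000 bp of another start in that table. ZEB2 was among the remaining 23, whose median fold was 5.60. The nearest start to its summit, that of QTMAN, was 50085 bp away, and 3 of the 23 had no start within 50 kb.

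No U-937 peak lay within 1000 bp of the ZEB2 start. The next peaks on that side, beyond 50 kb, were at 144659835 to 144660042, 139817 bp upstream of the start (fold 7.79, -log10 q 7.37, rank 530), and at 184 kb upstream within the lncRNA gene TEX41 (fold 5.51, rank 1442). The upstream peak at 139817 bp was stronger by fold than the peak at the gene end. ZEB2 was the nearest protein-coding gene to both.

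RUNX1, the DNA-binding subunit of core-binding factor and a frequent target of mutation in leukemia, had 2 U-937 peaks inside its span. The gene spans 34787801 to 35049302 on chromosome 21 on the minus strand, 262 kb. One peak, at 34865806 to 34866194, had a fold enrichment of 7.42 and a -log10 q of 6.67, rank 637 of 2272. The other, at 34908467 to 34908772, had a fold of 7.02 and a -log10 q of 5.95, rank 760.

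The RUNX1 peaks lay on either side of the internal start listed in the promoter table, at 34888699. The first was 22.8 kb downstream of it, also within the antisense lncRNA gene RUNX1-AS1, and the second 19.9 kb upstream of it. Neither was within 1000 bp of a start, and the gene table gives no exons. Another peak, at 35103011 to 35103217, lay 53812 bp beyond the 5′ end, just outside 50 kb. Its fold of 3.59 and -log10 q of 1.65 (rank 2071) put it near the bottom of the list.

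Having 2 peaks inside was uncommon. In U-937, 0.307% of all protein-coding genes had at least 2 summits inside the span, and 0.924% of the 3355 genes of at least 100 kb did. A single summit or more lay inside 10.4% of genes of that length. In all, 33 genes had exactly 2 U-937 peaks within 50 kb, both inside and none at a boundary. After RUNX1 itself, those nearest to it in span were TNS3 (307 kb, folds 5.86 and 2.89), ABCC1 (194 kb, 3.65 and 5.60), NFATC2 (176 kb, 4.87 and 7.64) and UBASH3B (159 kb, 6.40 and 6.24). This layout is a likeness in position only. Unlike RUNX1, some of the 33, such as FOXP1 and DNAJB1, had an inside peak within 1000 bp of a listed start.

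**Figure D2:**
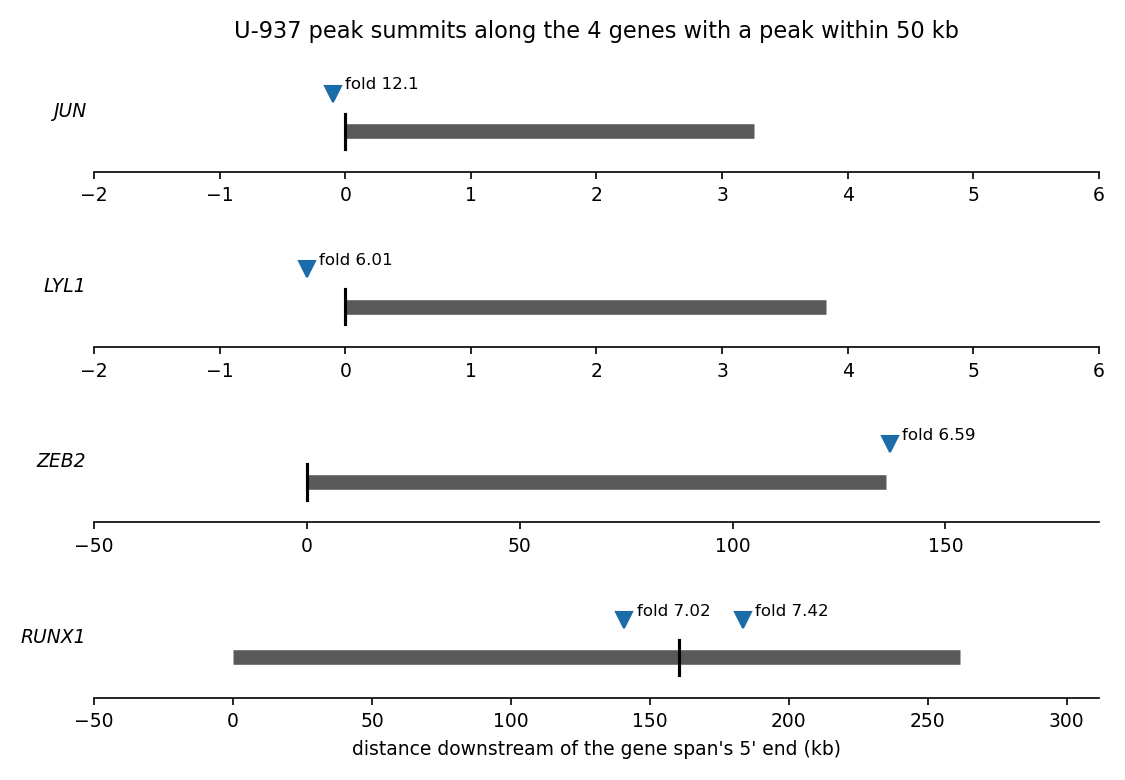
Maps of JUN, LYL1, ZEB2 and RUNX1, each drawn 5′ to 3′ (x axis, kb from the 5′ end of the span; grey bar, gene span; black tick, start in the promoter table; triangle, U-937 summit with its fold enrichment). The JUN and LYL1 summits sit just before the start, the ZEB2 summit just past the end, and the RUNX1 summits on both sides of the internal start.

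The 5 peaks spanned the upper and middle part of the U-937 list. Folds ran from 6.01 at LYL1 to 12.1 at JUN, against list quartiles of 4.95 and 7.64. The peaks at JUN, ZEB2 and RUNX1 were above the median of 6.16, and LYL1 was just below it. JUN was the only one above the upper quartile. By width, JUN, at 339 bp, and the first RUNX1 peak, at 389 bp, were above the upper quartile of 316 bp. The second RUNX1 peak, at 306 bp, lay between that quartile and the median of 238 bp. The peaks at ZEB2 and LYL1 were 205 and 219 bp, against a lower quartile of 206 bp.

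**Figure D3:**
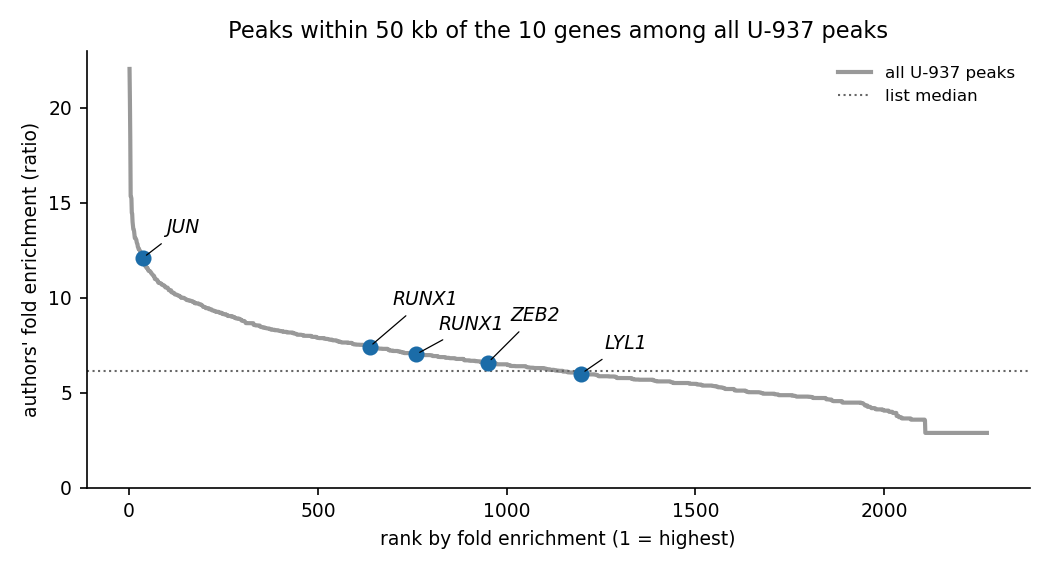
Authors' fold enrichment of all 2272 U-937 peaks in order of rank (grey line; x axis, rank; y axis, ratio; dotted line, median), with the 5 peaks within 50 kb of the 10 genes as points. JUN stands at rank 37, and the others lie between ranks 637 and 1198.

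The remaining 6 genes had no U-937 peak within 100 kb, a distance within which 33.8% of protein-coding genes had one. CEBPA, which directs granulocyte and monocyte progenitors, was the closest at 123 kb, from a peak at 33176916 to 33177117 on chromosome 19 that overlapped the tRNA gene TRT-AGT1-3 (fold 4.85, -log10 q 2.56, rank 1756). SPI1, the ETS factor on which monocytes depend, was 337 kb from a peak 190 bp upstream of the start of AGBL2, at 47715459 to 47715658 on chromosome 11 (fold 2.89, -log10 q 1.56, rank 2109). That peak had the lowest fold of the list, which other peaks share. The next peak, 389 kb from SPI1 and 163 bp upstream of FNBP4, had a fold of 10.2, a -log10 q of 11.7 and rank 121.

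CEBPB, a bZIP factor of activated macrophages, was 349 kb from a peak within PTPN1, at 50541722 to 50542044 on chromosome 20 (fold 4.45, -log10 q 2.10, rank 1939). MYB, a progenitor factor, was 548 kb from a peak at 134633233 to 134633448 on chromosome 6 (fold 4.72, -log10 q 2.57, rank 1812), whose nearest protein-coding gene, ALDH8A1, was 284 kb away. IRF8, needed for monocytes and dendritic cells, was 1.06 Mb from a peak within CRISPLD2, at 84837035 to 84837244 on chromosome 16 (fold 2.89, -log10 q 1.56, rank 2109). GFI1 was 1.93 Mb from a peak 168 bp upstream of the start of ABCD3, at 94418077 to 94418329 on chromosome 1 (fold 7.20, -log10 q 6.47, rank 699). Except for CEBPA, each of these was farther from a peak than the median protein-coding gene, and 91.8% of genes had a peak at least as near as GFI1. The 6 genes were set apart by having no peak within 100 kb, so their large distances follow in part from that choice. Over all 10 genes the median U-937 distance was 230 kb, against 226 kb for protein-coding genes. Distal enhancers are known for several of these genes, and no peak is assigned to one here.

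In THP-1, none of the 10 genes had a peak within 100 kb (background 6.45%). Few THP-1 peaks lay at gene starts at all. Of the 1037 on chromosomes, 33 were within 1000 bp of a listed protein-coding start. IRF8 was the nearest, at 488 kb from a peak within GSE1 at 85410868 to 85411783 on chromosome 16 (fold 5.35, -log10 q 7.34, rank 870 of 1282). CEBPA was 1.09 Mb from a peak within GPI, which encodes a glycolytic enzyme (fold 12.8, -log10 q 57.8, rank 191). LYL1 was 1.63 Mb from a peak within ELAVL3 (fold 5.55, -log10 q 5.29, rank 812), and CEBPB 1.68 Mb from a peak nearest to PREX1 (fold 4.15, -log10 q 2.32, rank 1129). IRF8 was the only one of the 10 with a THP-1 peak within 1 Mb, and it had 2.

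RUNX1 was 2.76 Mb from a THP-1 peak (fold 5.68, -log10 q 4.87, rank 785), and SPI1 was 3996182 bp from one (fold 22.6, -log10 q 70.4, rank 53). ZEB2 was 12.1 Mb away (fold 7.14, -log10 q 11.9, rank 543) and MYB 17.0 Mb (fold 4.82, -log10 q 2.89, rank 973). GFI1 was 18.3 Mb away (fold 24.8, -log10 q 166, rank 31) and JUN 27.3 Mb (fold 21.5, -log10 q 138, rank 63). High folds there belonged to peaks far from the gene and say nothing about it. Of all protein-coding genes, 97.6% had a THP-1 peak at least as near as JUN. No THP-1 peak overlapped any of the 5 U-937 peaks, whose nearest THP-1 peaks were 1.64 Mb (LYL1) to 27.4 Mb (JUN) away.

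**Figure D4:**
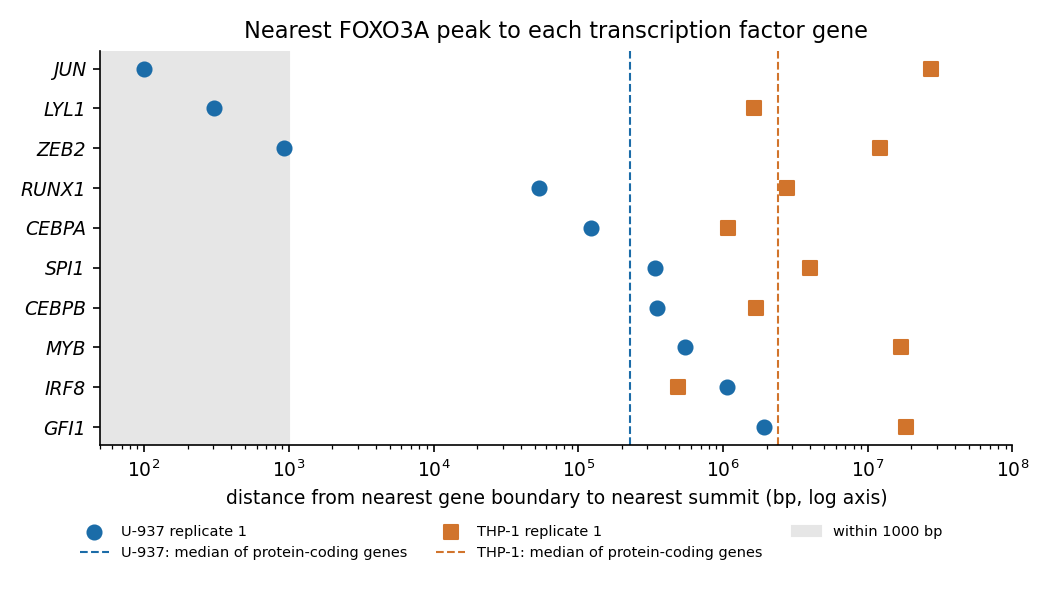
Distance from each gene's nearer boundary to the nearest summit (x axis, bp, log scale) for U-937 (circles) and THP-1 (squares), with dashed lines at the median of all protein-coding genes and grey shading up to 1000 bp. JUN, LYL1 and ZEB2 lie in the shaded zone in U-937 alone, and IRF8 is the only gene nearer to a THP-1 than to a U-937 peak. Of all protein-coding genes, 0.222% had a THP-1 peak in that zone, against 7.02% for U-937. The RUNX1 circle is the peak outside the gene at 53812 bp, since both inner peaks are farther from a boundary.

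Counts for the 10 genes were read beside those for all protein-coding genes. A boundary peak was present at 3 of 10 in U-937 (background 7.02%) and 0 of 10 in THP-1 (background 0.222%). A peak lay within 50 kb of 4 of 10 in U-937 (background 23.9%) and 0 of 10 in THP-1 (background 3.97%). A summit lay inside 1 of 10 in U-937 (background 5.21%) and 0 of 10 in THP-1 (background 0.952%). The genes were listed with the peaks at JUN, ZEB2 and LYL1 already known, so the U-937 shares are a description and no evidence of an excess. At the THP-1 background shares, a list of 10 genes would hold under 1 such gene, so the counts of 0 there are not a result about these genes.

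The median distance to a peak was 230 kb for the 10 genes and 226 kb for all protein-coding genes in U-937, and 3.38 against 2.39 Mb in THP-1. Peaks at the start were more common than peaks at the end in both lines. Of the 15842 genes with a listed start, 0.240% had a THP-1 start peak and 0.0252% an end peak with no start peak. JUN and LYL1 thus belong to the common class in U-937 and ZEB2 to the rare one.

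Motif letters were present in genes with and without a peak. The promoter table matched 9 of the 10 genes, all but SPI1, and CEBPB, IRF8 and GFI1 had more than 1 window. The 8 planned motifs were searched as exact letters on both strands, so variants of them were not counted. They were GTAAACA (forkhead), TGACTCA (AP-1), TGACGTCA (CRE), TTGCGCAA (CEBP), GGAAGT (ETS), TGTGGT (RUNX), CAGCTG (E-box) and GGGCGG (Sp and KLF). None of these 8 overlaps another in the matches found. GTAAACA occurred in 1 of the genes, MYB, at bases 237 to 243 of its window on the reverse strand, where no peak lay. GTAAACA occurred in 3.42% of all 35116 windows, and in 19 of the 962 (1.98%) with a U-937 summit inside. TGTGGT occurred in 1 window each of IRF8 and GFI1, and that GFI1 window also held TTGCGCAA and GGAAGT. Over all 35116 windows the shares were 13.1% for TGTGGT, 0.151% for TTGCGCAA and 22.8% for GGAAGT. These matches are a description and not a result about the genes.

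The Sp and KLF core GGGCGG occurred in windows of CEBPA, CEBPB, RUNX1, JUN, LYL1, MYB and GFI1, and in 15786 of the 35116 windows. Among the 962 windows with a U-937 summit it occurred in 721 (74.9%). These windows were also richer in G and C, with a median of 64.3% against 58.7% over all windows. The JUN window had 62.0% and that of LYL1 74.7%, while CEBPA, with 80.7%, and both CEBPB windows, with 77.0% and 76.7%, had no peak. The ZEB2 window had 49.0% and none of the 8 motifs. The part of base composition in these counts was not tested.

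Other transcription factors of blood cells carried U-937 boundary peaks at the background share. Over 8 lists of 114 genes, 8 had a boundary peak (7.02%, the same as the background to 3 digits) and 35 had a peak within 50 kb (30.7%, background 23.9%). In THP-1 the counts were 0 and 2 (1.75%, background 3.97%). These 2 were IKZF1, a lymphoid and myeloid zinc finger factor, with a peak 16170 bp downstream of a listed start (-log10 q 8.28, rank 574), and ZBTB7A, 7.47 kb from a peak within PIAS4 (fold 8.10, rank 457). IKZF1 also had a U-937 peak, at another position of the gene (fold 5.77, rank 1314).

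Of the 23 bZIP list genes, listed as relatives of JUN and the CEBP factors, 2 had a U-937 boundary peak (8.7%, background 7.02%). JUND, an AP-1 subunit like JUN, had its summit 168 bp upstream of the start (fold 9.64, -log10 q 11.9, rank 190), a layout like that of JUN. CEBPZ, which is grouped here by its name and is not a bZIP protein, had its summit 51 bp inside (fold 6.30, rank 1073). The share of 8.7% counts CEBPZ and so is too high for the bZIP family. Without it, JUND was the only gene of the list with a boundary peak. FOS, the partner of JUN in AP-1, had none at a boundary and a peak 19.7 kb upstream (fold 5.85, rank 1286). JUNB and FOSB had peaks 25.2 and 10.3 kb away that lay within HOOK2 and RTN2.

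Other boundary peaks of these lists lay near the 5′ end of the gene's span. Among 13 IRF and STAT genes, STAT2 (316 bp upstream, fold 9.25) and STAT3 (158 bp upstream, fold 7.42) had one (15.4%, background 7.02%). The STAT2 peak was also 145 bp from APOF. In this list 9 of 13 genes (69.2%, background 23.9%) had a peak within 50 kb, the highest share of any list. It is pointed out after the shares were seen and is a description only. In 5 of the 9 the nearest such peak lay at another gene's start (IRF7, STAT6, IRF9, STAT5B and IRF3). SP1 (fold 8.92), MXD1, a repressor that pairs with MAX (fold 7.42), CBFA2T2 (fold 7.20) and PPARD (fold 6.40) had the remaining ones. Each was the only such gene of its list. The list shares were, in that order, 5%, 5.56%, 16.7% (of 6 genes) and 10% (background 7.02%). The CBFA2T2 summit was 145 bp from the 5′ end of the span, and its position from the gene's listed start in the promoter table was -72391 bp. The 14 ETS genes and 10 stem cell and homeobox genes had 0 (background 7.02%), as did 20 factors of other lineages. Of those 20, 6 (30.0%, background 23.9%) had a peak within 50 kb.

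**Figure D5:**
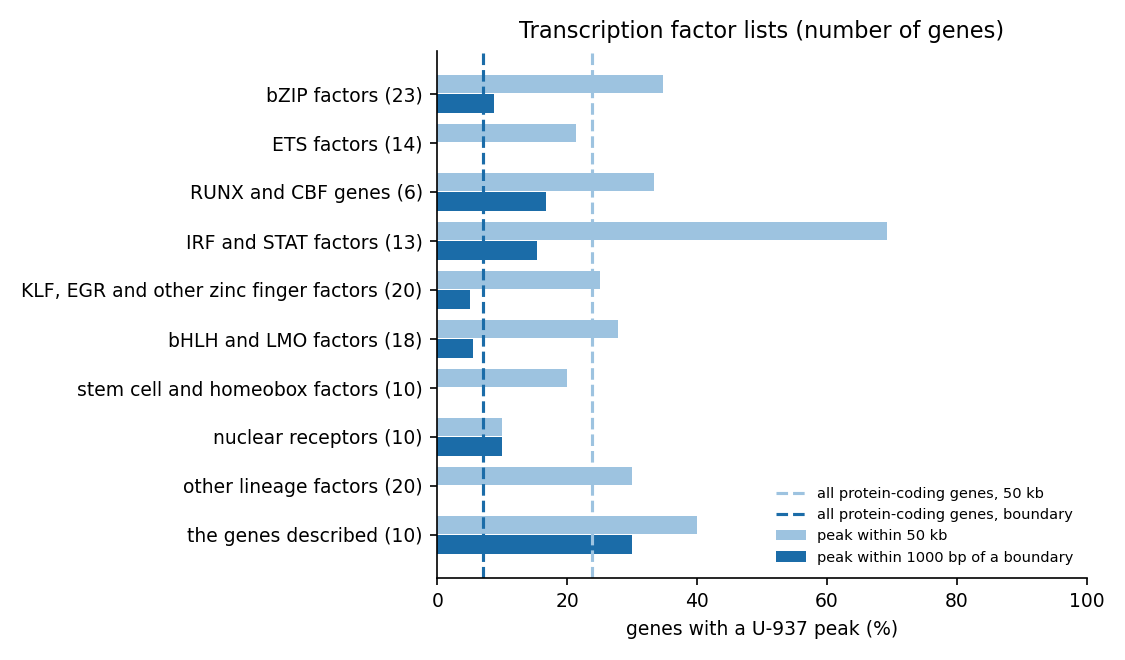
Share of genes with a U-937 peak in each list (x axis, percent; light bars, peak within 50 kb; dark bars, boundary peak; dashed lines, all protein-coding genes at 23.9% and 7.02%; number of genes in brackets). The dark bars of most lists stand near or below their line, and the bar for the 10 genes described, at 30.0%, reflects a list made with its peaks known.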

How the data were processed

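Per the submitters' processing notes, Bowtie2, Picard and the hg38 build were used, with no versions or roles. The authors deposited 1 narrowPeak list per library, without a header. Columns were read by that layout as the deposited fold enrichment (a ratio), -log10 p-value, -log10 q-value, integer score and summit offset. The other 3 lists stated that no peaks were found.

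Gene spans came from the RefSeq table of GRCh38.p14, the same assembly, after 718 genes out of chromosome order were left out as lying on other scaffolds. Strand and starts came from the RefSeq promoter table, whose windows run from 250 bases before to 50 after a start. THP-1 peaks outside chromosomes (245) were ranked but not located. Distances and counts were computed with Python 3.11.15 and pandas 2.3.3. The distance, boundary, 50 kb and inside calls were checked on simulated data. Each gene stood alone with a single planted peak, and all 200 calls of each kind matched the planted position. That check covered the code alone, and not strand, start and end calls or neighbouring genes and peaks.

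No test was run, as each line had 1 library with peaks. Members, lists and calls were chosen with earlier results of these data known. Named were the 10 genes, all peaks within 50 kb, list genes with a boundary peak (up to 6 a list) and genes laid out like RUNX1. Other list genes were named after their values were seen. Sequences under the RUNX1 and ZEB2 peaks were not used here.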

Additional observations from a re-analysis of the deposited data

How the results depend on the processing

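The counts of genes with a boundary peak and with a peak within 50 kb stayed within 1.5 times their reported value under every alternative run. Those for U-937 were 2 of 10 boundary genes with peaks of -log10 q of at least 5, within 500 bp or at the start alone, and 3 of 10 within 3000 bp or by peak interval. Within 50 kb the count was 3 at that q and otherwise 4. Counting any overlap rather than the summit, 2 genes had a U-937 peak inside, as JUN joined RUNX1 by 14 bases. The median U-937 distance became 453 kb with peaks of -log10 q of at least 5, where the nearest peak of CEBPA, CEBPB, IRF8, LYL1 and MYB changed by more than 1.5 times. Measured from the peak's edge, JUN and LYL1 changed by more than that. THP-1 counts for the 10 genes were 0 throughout. No paired analysis was possible because each line had 1 library with peaks and no test was run, and for the same reason no replicate could be left out. Depth is unknown, so a missing peak does not show missing binding.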
